A study of Mus musculus with 2 samples.

Results

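*Kat2a* encodes the histone acetyltransferase GCN5. The cells described here were the 469 cells of the library labelled KO with at least 1 unique molecular identifier (UMI, a tag that marks 1 captured RNA molecule) of *Kat2a*, among 3545 cells of that library with 500 or more detected genes and 7411 such cells in the series. They were chosen by their *Kat2a* UMIs, so their *Kat2a* values are a description and carry no test. Each sample was 1 droplet single-cell RNA library of mouse bone marrow with *MLL-AF9* leukemia. Both genotypes carried the Kat2a Flox/Flox alleles on a C57Bl/6 background and differed in Mx1-Cre, an interferon-inducible recombinase that was absent in the WT mice and present in the KO mice. Mice of both genotypes received pIpC, an inducer of interferon, weeks before their marrow was transduced with a retrovirus for *MLL-AF9* and YFP and injected into irradiated recipients. Marrow of terminal disease from 4 KO and 5 WT leukemias was thawed, pooled by genotype and sorted for live YFP-positive singlets. Within a pool the cells carry no label of their leukemia, and no age of the mice was used here.

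GCN5 is the catalytic subunit of SAGA and ATAC, large coactivator complexes that acetylate histone H3 at promoters, and acetylation marks promoters in use. *MLL-AF9* is a fusion oncogene that blocks myeloid maturation and holds cells at the stage of a granulocyte-macrophage progenitor, although part of each leukemia still matures. Maturing granulocytes make primary granule proteins such as myeloperoxidase first, then secondary granule proteins such as lactoferrin. The S100 proteins and stefins are counted here with the mature cell.

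*Kat2a* (ENSMUSG00000020918) lies on the minus strand of chromosome 11, from 100704746 to 100712465 in mm10, with 18 exons in the transcript with the most exons. The libraries were read from the 3′ end of transcripts, and the last exon, from 100704746 to 100705431, is retained in the excised allele, which is still transcribed. A *Kat2a* UMI therefore does not tell an excised from an intact allele. *Kat2a* stood at 95.8 counts per 1000000 UMIs (CPM; 95% counting interval 89.1 to 103) in the kept cells of the library labelled KO and at 12.2 CPM (10.2 to 14.3) in those of the library labelled WT, against the direction of the labels. The deposited labels do not say which barcode suffix is which genotype. The assignment used throughout came from the study's published code, and whether it is right was not tested. There was 1 library per genotype, so no test between genotypes could be made, and all intervals here cover counting error only. They treat UMIs as independent, although a few cells can carry much of a gene. Of the barcodes, 28 occurred in both libraries, and 3 of the 469 cells carried such a barcode.

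In the library labelled KO, 759 *Kat2a* UMIs fell in 13.2% of kept cells (95% exact binomial interval 12.1 to 14.4), and in the library labelled WT 142 UMIs fell in 124 of 3866 kept cells, 3.21% (2.67 to 3.81). Of the 469 cells, 298 held 1 UMI, 113 held 2 and 58 held 3 or more. If each cell had drawn *Kat2a* at the library's mean level in proportion to its own UMIs, 663 cells would have been calculated to hold *Kat2a*, 579 of them with 1 UMI, 74.9 with 2 and 9.76 with 3 or more. The observed UMIs were thus packed into fewer cells, with fewer at 1 UMI and more at 2 and at 3 or more than calculated. In the library labelled WT, 107 cells held 1 UMI, 16 held 2 and 1 held 3, against 135, 3.17 and 0.0630 calculated. The 10 cells with the most *Kat2a* held 80 of the 759 UMIs, 10.5%, and the highest cells held 18 and 15 UMIs.

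**Figure D1:**
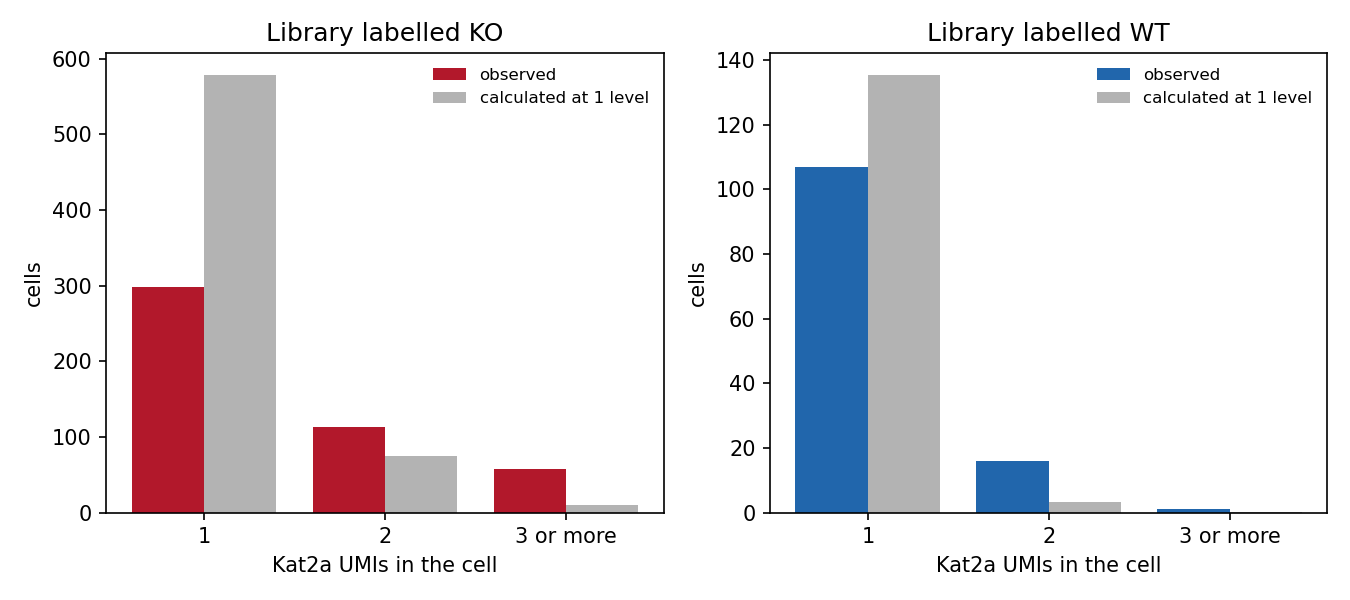
Number of kept cells (y axis) with 1, 2 and 3 or more *Kat2a* UMIs (x axis) in the library labelled KO (left) and labelled WT (right). Coloured bars are the observed cells and grey bars the number calculated if every cell held *Kat2a* at the library mean in proportion to its UMIs: 58 observed against 9.76 calculated at 3 or more in the library labelled KO.

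Detection followed depth. The *Kat2a*-detected cells had a median of 2762 UMIs (range 846 to 10816) and 1123 genes, and the 3076 other kept cells a median of 1807 UMIs (775 to 11908) and 789.5 genes. When the kept cells were ordered by total UMIs and split into 10 bins of equal size, *Kat2a* was detected in 3.94% (2.17 to 6.53) of cells in bin 1, the shallowest, in 9.01% (6.25 to 12.5) in bin 5 and in 36.7% (31.7 to 42.0) in bin 10. The shares calculated at a single level were 15.6% in bin 5 and 38.9% in bin 10, and the observed share lay below the calculated one in each of the 10 bins. The level rose as well, from 42.9 CPM (24.0 to 70.8) in bin 1 through 66.6 CPM (48.0 to 90.1) in bin 5 to 135 CPM (118 to 152) in bin 10. How much of the rise in detection came from depth alone was not tested. With each cell thinned to 1000 UMIs, which left out 194 shallower cells (8 with and 186 without *Kat2a*), 236 of 3351 cells, 7.04%, still held *Kat2a*. Within 50 genes of the limit of 500 genes, 6 of the 310 cells just inside it held *Kat2a* (23.9 CPM, 10.3 to 47.1), as did 8 of the 293 cells just outside it (26.8 CPM, 11.6 to 52.9).

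**Figure D2:**
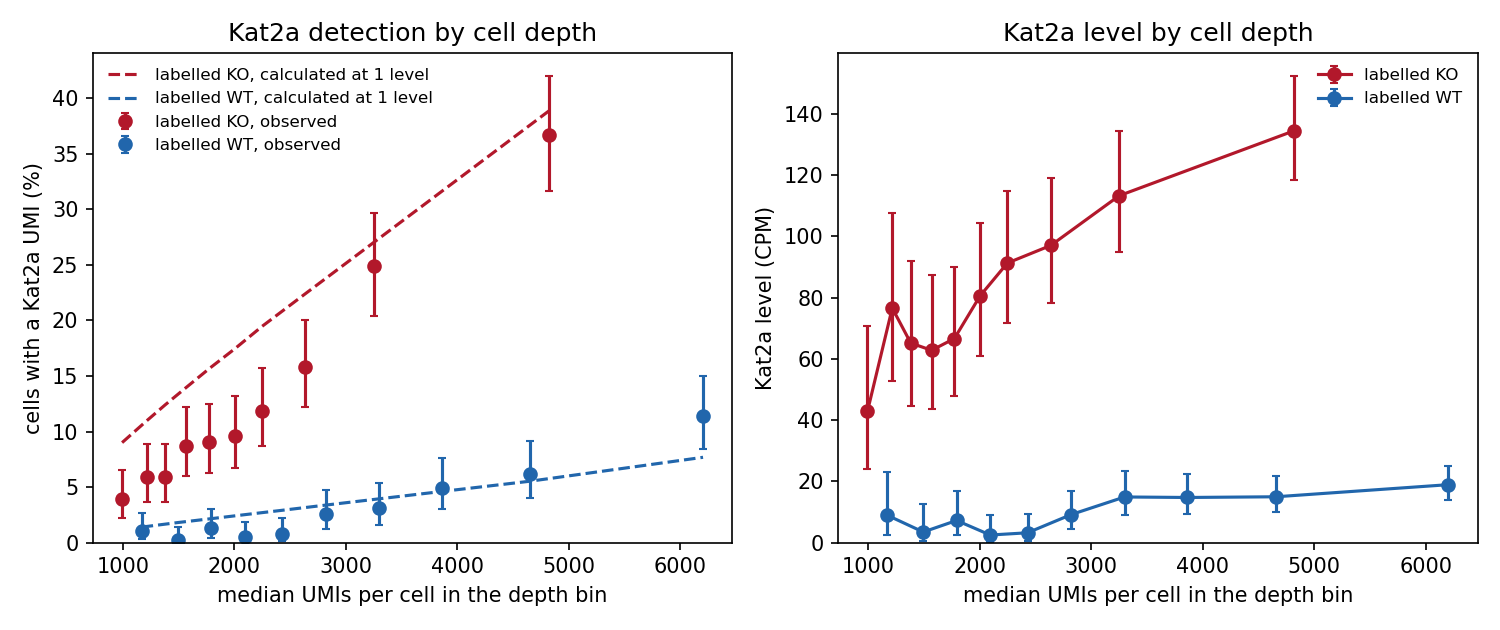
Left, share of kept cells with a *Kat2a* UMI (%) against the median UMIs per cell in 10 bins of each library by depth, with 95% exact binomial intervals. Dashed lines give the share calculated at a single level. Right, *Kat2a* level (CPM) in the same bins with 95% Poisson intervals: from 42.9 to 135 CPM in the library labelled KO.

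To place these cells among the leukemia's states, the kept cells of both libraries were divided into 12 clusters without *Kat2a*. In the library labelled KO, *Kat2a* was highest in cluster 3, led by *Mpo*, *Elane*, *Ctsg* and *Nkg7* and progenitor-like by its primary granule genes, at 156 CPM (130 to 186). It was lowest in the granulocyte-like clusters 11, led by *BC100530* and *Stfa2l1*, at 17.7 CPM (4.83 to 45.4), and 4, led by *Ltf* and *Mmp9*, at 18.1 CPM (7.27 to 37.3). The highest level was 8.78-fold the lowest. Cluster 1, granulocyte-like by *Camp* and *Ngp* with cycle genes such as *Nusap1* and *Ube2c* among its leading genes, stood at 49.7 CPM (38.0 to 64.0), and the granulocyte-like cluster 7, led by *Stfa1* and *Gm5483*, at 57.5 CPM (38.5 to 82.6). All 4 granulocyte-like clusters thus lay below the 6 highest clusters, whose intervals started at 79.7 CPM or more, except that the interval of cluster 7 reached 82.6 CPM.

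The upper clusters could not be ordered by their counting intervals. Cluster 8, led by the mitotic genes *Ube2c*, *Birc5*, *Aurkb* and *Ccnb1*, stood at 133 CPM (111 to 157), and cluster 9, led by *Slc25a4*, *C1qbp* and *Srm*, a polyamine synthesis enzyme, stood at 124 CPM (105 to 146). Cluster 6, led by *Ly6e*, *BC035044* and *Itm2c*, held 112 CPM (87.9 to 141), cluster 10, monocyte or macrophage-like with *Irf8* and *Ms4a6c*, 108 CPM (79.7 to 142), and cluster 2, led by *Clec4b2*, *Gal* and *Cdkn1c*, 107 CPM (85.8 to 131). The intervals of clusters 8, 9, 6, 10 and 2 overlapped one another. The monocyte or macrophage-like cluster 5, with *Ccl6* and *Apoe*, and cluster 12, with *Itgb7* and *H2-DMa*, lay between these and the lowest clusters, at 71.2 CPM (42.9 to 111) and 58.0 CPM (36.4 to 87.8). In the library labelled WT, levels ran from 1.35 CPM (0.0342 to 7.52) in cluster 11 and 3.04 CPM (0.627 to 8.89) in cluster 4 to 26.0 CPM (18.1 to 36.1) in cluster 9, with cluster 3 at 15.9 CPM (10.8 to 22.5). The granulocyte-like clusters 4 and 11 were thus the lowest in each library.

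By share of cells, *Kat2a* was detected in 32.2% of cluster 9 in the library labelled KO (median 3939 UMIs) and in 27.0% of cluster 3 (2516 UMIs), against 2.56% of cluster 4 (1514 UMIs) and 3.48% of cluster 11 (1730 UMIs). Thinned to 1000 UMIs the shares were 10.9%, 11.6%, 1.29% and 1.75%, so clusters 9 and 3 stayed above clusters 4 and 11 at equal UMIs. No cell type here is known to lack *Kat2a*. In cells under 500 genes it stood at 24.1 CPM (13.7 to 39.1). The intervals of clusters 4 and 11 included that level. Those of clusters 1 (38.0 to 64.0), 7 (38.5 to 82.6) and 12 (36.4 to 87.8) overlapped its interval at their lower ends. Free RNA was not measured here, so detection in any of these clusters was not read as expression.

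**Figure D3:**
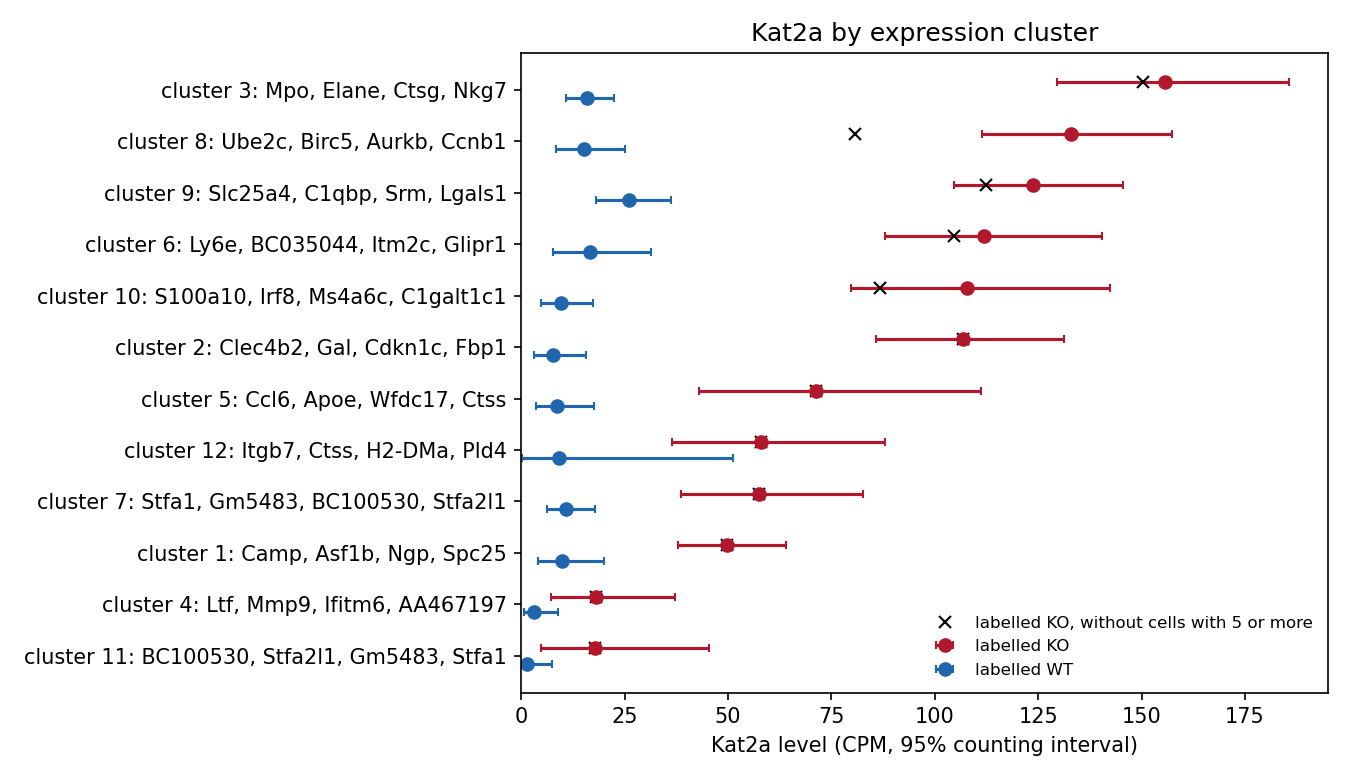
*Kat2a* level (CPM, with 95% Poisson counting intervals) in 12 expression clusters, ordered by the level in the library labelled KO, for that library (red) and the library labelled WT (blue). Black crosses give the level in the library labelled KO without its 12 cells with 5 or more *Kat2a* UMIs: cluster 8 drops from 133 to 80.8 CPM.

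The 4 cells with the most *Kat2a* were all in cluster 8, with the mitotic cells. Of the 12 cells with 5 or more UMIs, 5 were in cluster 8, 3 in cluster 9, 2 in cluster 10 and 1 each in clusters 3 and 6. Those 5 cells held 18, 15, 8, 7 and 6 UMIs among 4633, 2382, 4939, 4163 and 2003 total UMIs, and 1 of them, with 15 UMIs, had a barcode that also occurred in the other library. Their doublet scores, as defined below, were 0.96, 0.60, 0.86, 0.74 and 0.62 in the same order. The median of paired *Kat2a*-detected cells was 0.54. Whether these cells were doublets was not tested. Without the 12 cells, cluster 8 stood at 80.8 CPM while cluster 3 stood at 150 CPM and cluster 9 at 112 CPM. The level in cluster 8 was thus set in large part by 5 of its 342 cells, and its thinned share of 6.45% was below those of clusters 3 and 9. The *Kat2a*-detected cells of cluster 8 held 2.27 *Kat2a* UMIs each on average, against 1.61 in cluster 3 and 1.71 in cluster 9.

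The library labelled KO pooled leukemias of both sexes, as seen from *Xist*, the RNA of the inactive X chromosome, and from 4 Y-linked genes. *Kat2a* stood at 103 CPM (84.6 to 125) in the 446 kept cells with *Xist* and no Y-linked UMI, of which 15.5% (12.2 to 19.2) held *Kat2a*. In the 562 cells with a Y-linked UMI and no *Xist* it stood at 113 CPM (97.5 to 131), and 18.0% (14.9 to 21.4) held *Kat2a*. The log2 ratio of the levels was 0.13 (−0.22 to 0.50), and the intervals of both measures overlapped. *Kat2a* was therefore found on both sides of this split, and no more than that can be said of the leukemias of origin.

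The 3 neighbours of *Kat2a* with the most UMIs differed by less than 1.5-fold between the libraries. *Dhx58*, an RNA sensor induced by interferon, begins 474 bases past the 3′ end of *Kat2a* on the same strand (100694884 to 100704271). It stood at 11.6 CPM (9.36 to 14.2) in the library labelled KO and 9.25 CPM (7.59 to 11.2) in the library labelled WT. *Rab5c*, a GTPase of early endosomes (100715009 to 100738215, minus strand), stood at 193 CPM (184 to 203) and 169 CPM (162 to 177), and *Nkiras2* (100619244 to 100627607, plus strand), an inhibitor of NF-κB signalling, at 44.2 CPM (39.7 to 49.1) and 45.6 CPM (41.8 to 49.6). Between *Kat2a*-detected and depth-matched cells of the library labelled KO, *Rab5c* stood at 189 and 198 CPM (log2 ratio −0.07, −0.31 to 0.17), *Nkiras2* at 46.0 and 40.1 CPM (0.20, −0.33 to 0.73) and *Dhx58* at 11.7 and 8.98 CPM (0.38, −0.75 to 1.54). All 3 intervals included 0. *Hspb9*, with 3 UMIs in the kept cells of that library, *Ghdc*, with 17, and *Dhx58os*, with 1, were too rare to compare, *Zfp385c*, *Kcnh4* and *Hcrt* had 0 UMIs there, and *Gm44544* was not among the genes counted.

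For the comparison at equal depth, each *Kat2a*-detected cell was paired with the other kept cell of the same library nearest in total UMIs. This paired 464 of the 469 cells and left out 5 with 10301 to 10816 UMIs, for which no unused cell lay within 10%. The paired sets had medians of 2732.5 and 2731 UMIs per cell, and 1117.5 and 1042 genes. Thinned to 1000 UMIs in 455 pairs, the medians were 584 and 563 genes. A doublet score, the share of a cell's nearest neighbours that were sums of cells made in the computer, had a median of 0.54 in *Kat2a*-detected and 0.56 in matched cells. Of 2415 genes with a UMI in 10% or more of the kept cells, *Kat2a* left out, 23 were higher by 1.5-fold or more (0.952%) and 34 lower (1.41%) in *Kat2a*-detected cells. The median log2 ratio of all of them was 0.07, and 61.5% were above 0.

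*Kat2a*-detected cells carried less of the transcripts of maturing granulocytes. *S100a8* and *S100a9*, the subunits of calprotectin, stood at 9624 and 5838 CPM in *Kat2a*-detected cells and at 17863 and 10628 CPM in matched cells, log2 ratios of −0.89 (−0.92 to −0.86) and −0.86 (−0.90 to −0.83). The secondary granule genes *Ngp* and *Camp* stood at 15929 and 8101 CPM against 28807 and 14324 CPM (−0.85, −0.88 to −0.83, and −0.82, −0.86 to −0.79). *Ltf*, which encodes lactoferrin, was at 115 against 277 CPM (−1.27, −1.54 to −1.01) and *Lcn2*, a siderophore-binding protein, at 942 against 1700 CPM (−0.85, −0.95 to −0.76). The shares of cells with a UMI differed less than the levels. *S100a8* had a UMI in 83.8% of *Kat2a*-detected and 85.6% of matched cells (67.0% and 73.6% thinned), and *Camp* in 73.9% and 78.7% (52.7% and 62.4% thinned). *S100a9* was found in 75.4% and 81.2% (59.6% and 69.7% thinned) and *Lcn2* in 60.3% and 66.6% (44.0% and 54.5% thinned). *Ltf* was found in fewer cells of both sets, at 12.5% and 18.8% (6.59% and 10.8% thinned).

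The stefin genes, inhibitors of cysteine proteases expressed in mature granulocytes, were lower too. *BC100530* stood at 668 CPM in *Kat2a*-detected and 1848 CPM in matched cells (−1.47, −1.58 to −1.36), *Gm5483* at 197 and 386 CPM (−0.97, −1.18 to −0.76) and *Stfa1* at 487 and 775 CPM (−0.67, −0.81 to −0.53). These genes are near-identical copies, so reads can be split among them and the values of single copies are uncertain. *C5ar1*, the receptor for complement C5a, and *Anxa1*, an anti-inflammatory phospholipid-binding protein, were also lower, at 39.9 against 98.1 CPM (−1.30, −1.77 to −0.85) and 559 against 932 CPM (−0.74, −0.87 to −0.61). *Cd9*, a tetraspanin, stood at 323 against 502 CPM (−0.64, −0.81 to −0.47).

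In the library labelled WT the 123 pairs of *Kat2a*-detected and matched cells, with a median of 4467 UMIs, gave values of the same direction for these genes. *S100a8* stood at 6827 against 13125 CPM (log2 ratio −0.94, −0.998 to −0.89), *Camp* at 4874 against 11562 CPM (−1.25, −1.31 to −1.18), *Ltf* at 44.2 against 135 CPM (−1.61, −2.31 to −0.95) and *BC100530* at 785 against 2193 CPM (−1.48, −1.64 to −1.33). Of the 15 leading lower genes, 13 were below 0 there, where 55.4% of all 2415 genes were above 0. An interval below 0 was seen for 11 of the 15, and the share of all genes with one is not given here. Over all 2415 genes 59.9% had the same sign in both libraries. The comparisons shared no cells, and each was made in 1 library.

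**Figure D4:**
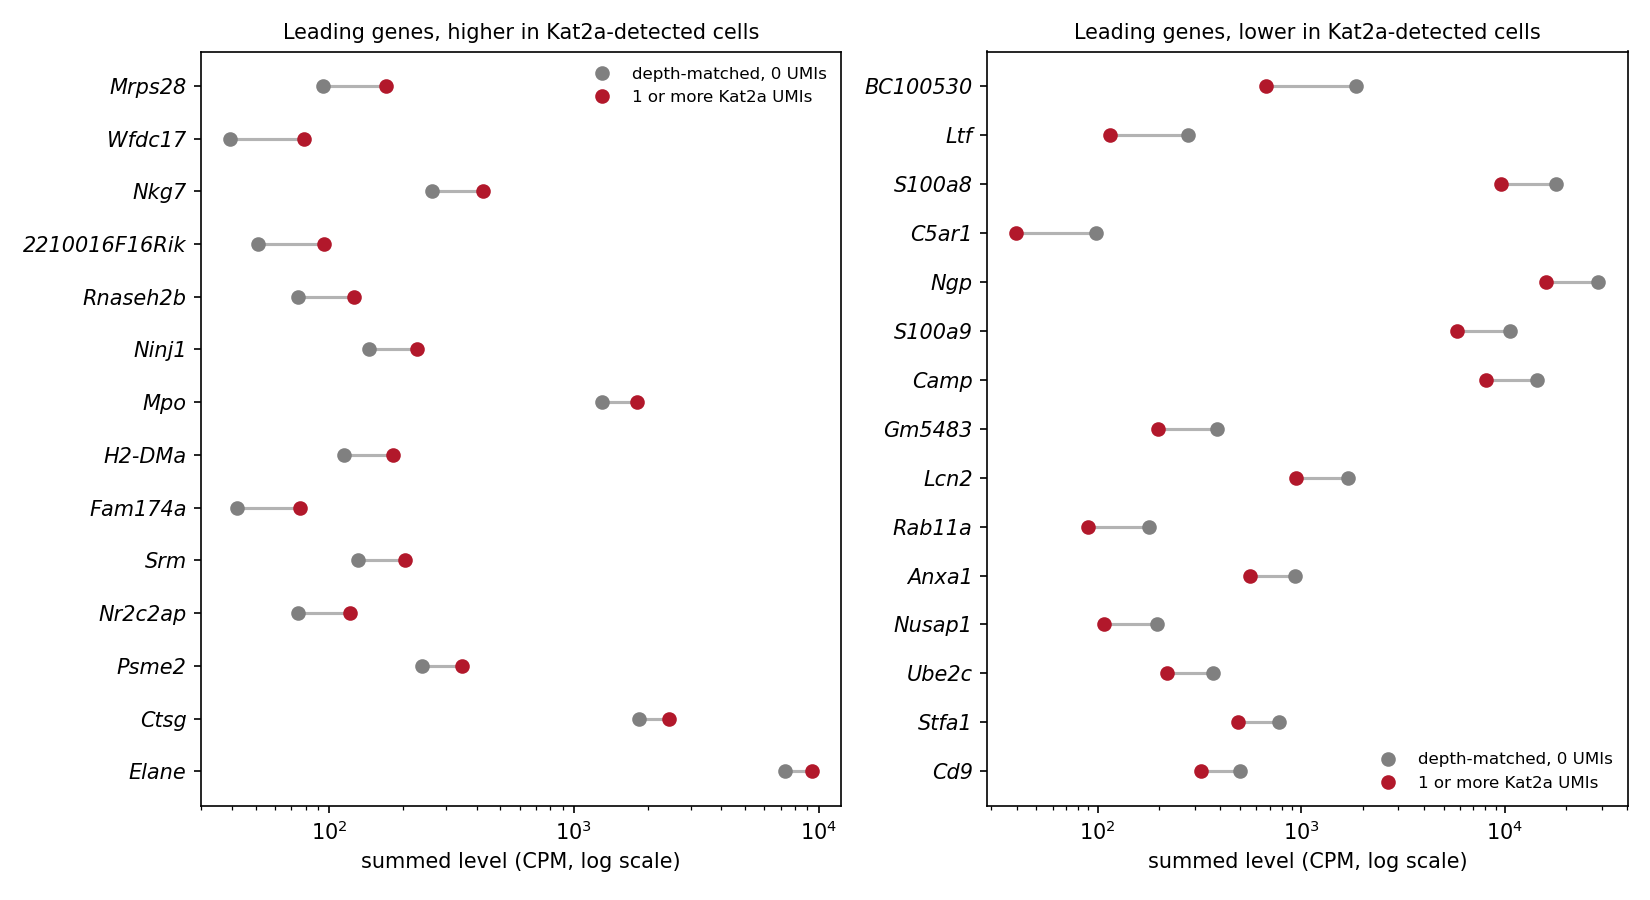
Summed levels (CPM, log scale) of 14 leading higher genes (left) and 15 leading lower genes (right) in the 464 *Kat2a*-detected cells (red) and their 464 depth-matched cells without *Kat2a* (grey) of the library labelled KO. *BC100530* stood at 668 CPM in the former and 1848 CPM in the latter.

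Over whole lists, all 8 tested genes of the secondary and tertiary granule list were below 0, 4 of them lower by 1.5-fold or more, and their median log2 ratio was −0.68. The size of the gap varied. *Chil3* stood at 11407 against 14696 CPM (−0.37, −0.39 to −0.34). *Hp* was nearly level at 2436 against 2459 CPM (−0.01, −0.08 to 0.05), and the interval of *Cybb* also included 0 (−0.27, −0.57 to 0.02). The list's 13 genes summed to 39435 CPM against 62970 CPM (log2 ratio −0.68, −0.69 to −0.66). Of the 10 tested genes of the mature granulocyte list 7 were lower, 6 of them by 1.5-fold or more, with a median of −0.68 and sums of 25701 against 39702 CPM (−0.63, −0.65 to −0.61). *Slpi*, an inhibitor of neutrophil elastase in that list, went the other way, at 6684 against 5232 CPM (0.35, 0.31 to 0.40), and *Pglyrp1*, a peptidoglycan-binding protein, was at 1734 against 2205 CPM (−0.35, −0.42 to −0.27). The sums gave −0.56 (−0.58 to −0.53) and −0.62 (−0.65 to −0.59) in the library labelled WT. A cell's share of UMIs in the mature granulocyte list had a median of 1.64% (quartiles 0.722 and 3.93%) in *Kat2a*-detected and 3.02% (0.820 and 7.11%) in matched cells, so the distributions overlapped widely and parted most in the upper quartile. In each set 78 of the 464 cells held 50% of the list's UMIs.

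Primary granule genes were moderately higher. *Elane*, neutrophil elastase, stood at 9426 CPM in *Kat2a*-detected and 7307 CPM in matched cells (0.37, 0.33 to 0.40), *Ctsg*, cathepsin G, at 2455 and 1848 CPM (0.41, 0.34 to 0.48), *Prtn3*, proteinase 3, at 2437 and 1894 CPM (0.36, 0.29 to 0.44) and *Mpo*, myeloperoxidase, at 1814 and 1307 CPM (0.47, 0.39 to 0.56). *Mpo* had a UMI in 45.0% of *Kat2a*-detected and 39.9% of matched cells (35.2% and 29.0% thinned). *Lyz2*, lysozyme, which is shared with monocytes and mature granulocytes, was lower at 1522 against 2003 CPM (−0.40, −0.48 to −0.32). Of the 10 tested genes of the list 8 were higher, none by 1.5-fold, and the sums gave 0.24 (0.22 to 0.27). The sums gave 0.04 (0.00 to 0.07) in the library labelled WT, with *Elane* at 10225 against 10249 CPM, so most of the gap was absent there.

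Pooled over clusters, these differences were smaller when cells were compared within their own cluster. When each *Kat2a*-detected cell was paired with a cell of its own cluster (451 pairs), the log2 ratio was −0.095 for the mature granulocyte list, −0.15 for the secondary and tertiary granule list and −0.0051 for the primary granule list, and the counts fell to 14 genes higher and 14 lower. These pooled values joined clusters that went both ways. The mature granulocyte list had an interval below 0 in 5 of the 12 clusters, among them cluster 8 at 30532 against 41881 CPM (−0.46, −0.50 to −0.41). It lay above 0 in 5, among them cluster 9 at 14750 against 11874 CPM (0.31, 0.26 to 0.37). Of those above 0, clusters 5, 11 and 12 held only 11, 4 and 16 pairs. For the primary granule list the intervals lay below 0 in 6 clusters and above 0 in 2, clusters 7 and 8, the latter at 31706 against 25702 CPM (0.30, 0.25 to 0.36). For the secondary and tertiary granule list they lay below 0 in 6 and above 0 in 4. The clusters were built in part from these genes. Among single genes, *S100a8* was at −0.21 and *Camp* at −0.05 within clusters, and *Mpo* at 0.07.

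Mitosis genes were lower in *Kat2a*-detected cells, both in all pairs and within clusters. The mitosis list summed to 7611 CPM against 9227 CPM (log2 ratio −0.28, −0.31 to −0.24), 17 of its 20 tested genes were lower, 3 of them by 1.5-fold or more, and the median was −0.27. *Ube2c*, a ubiquitin-conjugating enzyme of the anaphase-promoting complex, stood at 219 against 368 CPM (−0.75, −0.95 to −0.54), *Nusap1*, a spindle protein, at 108 against 195 CPM (−0.85, −1.14 to −0.57), *Birc5*, survivin, at 298 against 437 CPM (−0.55, −0.73 to −0.37) and *Hmgb2*, a chromatin protein, at 2769 against 3303 CPM (−0.25, −0.32 to −0.19). *Anp32e*, a histone chaperone in the list, was at 453 against 415 CPM (0.13, −0.04 to 0.29). Within clusters the list gave −0.25 when pooled, and it was below 0 in 10 of the 12 clusters. Its interval lay below 0 in 6 clusters and above 0 in 2. Cluster 8 was among the 6, at 14300 against 18084 CPM in 57 pairs (−0.34, −0.41 to −0.27), although cluster 8 held the cells with the most *Kat2a*. The list gave −0.14 (−0.20 to −0.08) in the library labelled WT, where *Ube2c* stood at 236 against 229 CPM and *Nusap1* at 122 against 130 CPM.

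S-phase genes summed to nearly the same level in both sets when cells were paired by depth. The S phase list summed to 3913 CPM against 3831 CPM (0.03, −0.02 to 0.08), with 9 of 16 tested genes higher and 7 lower, and stood at 3567 against 3580 CPM in the library labelled WT (−0.01, −0.09 to 0.08). *Pcna*, the sliding clamp of DNA replication, was at 346 against 327 CPM (0.08, −0.10 to 0.27) and *Rrm2*, a subunit of ribonucleotide reductase, at 414 against 506 CPM (−0.29, −0.45 to −0.13). Against all other kept cells, which were shallower, the list gave 0.37, and with cells thinned to 1000 UMIs it also gave 0.37. The comparison thus turned on the pairing by depth. Paired within clusters, the pooled value was 0.03, but the clusters went both ways. The interval lay below 0 in 3 of the 12 clusters and above 0 in 6. Among the 6 were clusters 4, 11 and 12, with 6, 4 and 16 pairs. The 3 were clusters 6, 9 and 10, with 51, 82 and 24 pairs.

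**Figure D5:**
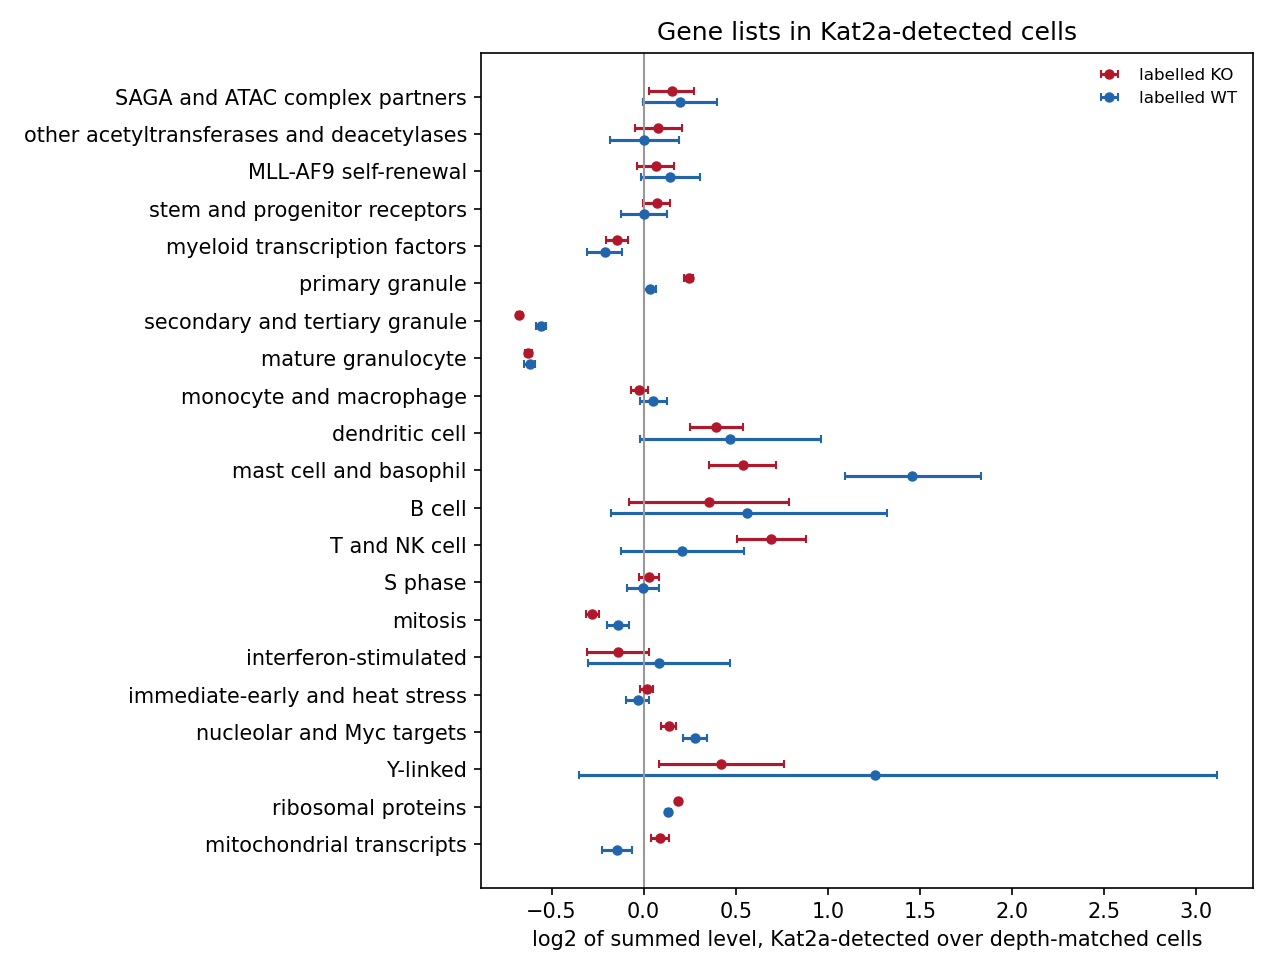
Log2 ratio of the summed level of each gene list in *Kat2a*-detected over depth-matched cells, with 95% counting intervals, in the library labelled KO (red) and labelled WT (blue). The secondary and tertiary granule and mature granulocyte lists lie between −0.68 and −0.56 in both. The erythroid and megakaryocyte lists, whose UMIs came from very few cells, are not drawn.

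Growth genes were slightly higher. The nucleolar and Myc target list summed to 7345 CPM against 6688 CPM (0.14, 0.10 to 0.18), with 9 of 11 tested genes higher, and to 7621 against 6285 CPM in the library labelled WT (0.28, 0.21 to 0.34). *Srm*, spermidine synthase, was the 1 gene of the list higher by 1.5-fold, at 204 against 131 CPM (0.64, 0.38 to 0.92), and stood at 214 against 137 CPM in the library labelled WT (0.65, 0.23 to 1.07). *Eif5a*, a translation factor that carries a modification made from spermidine, was at 3103 against 2849 CPM (0.12, 0.06 to 0.18), *Npm1*, nucleophosmin, at 1060 against 987 CPM (0.10, 0.00 to 0.21) and *Ldha*, lactate dehydrogenase, at 843 against 857 CPM (−0.03, −0.14 to 0.09). Ribosomal protein genes took 14.9% of UMIs in *Kat2a*-detected and 13.1% in matched cells (log2 ratio 0.19, 0.18 to 0.20, and 0.13 when totals left out the 50 most abundant genes), and all 81 tested were above 0.

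The remaining leading higher genes were of mixed function. *Mrps28*, a mitochondrial ribosomal protein, stood at 170 against 94.0 CPM (0.86, 0.55 to 1.17) and had a UMI in 30.8% against 20.5% of cells (11.4% and 8.13% thinned). *Nkg7*, a granule membrane protein of cytotoxic and early myeloid cells, stood at 426 against 263 CPM (0.70, 0.51 to 0.89), *Ninj1*, a membrane protein of lytic cell death, at 229 against 146 CPM (0.65, 0.40 to 0.91), and *Psme2*, a proteasome activator subunit, at 348 against 240 CPM (0.54, 0.34 to 0.74). *H2-DMa*, which loads peptides on MHC class II, was at 182 against 115 CPM (0.67, 0.38 to 0.96) and *Wfdc17*, a macrophage-expressed WAP-domain protein, at 79.0 against 39.4 CPM (1.005, 0.53 to 1.49), but both turned to −0.029 and −0.87 against all other kept cells. The others were *2210016F16Rik*, *Rnaseh2b* (a subunit of ribonuclease H2), *Fam174a* and *Nr2c2ap*, with log2 ratios from 0.70 to 0.90.

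Of the 14 leading higher genes given here, 10 were above 0 in the library labelled WT, where 55.4% of all 2415 genes were. Of the 14, 2, *Srm* and *Ctsg*, had an interval above 0 there. The share of all genes with such an interval is not given here. *Mrps28* stood at 141 against 126 CPM in that library (0.16, −0.31 to 0.63), *Nkg7* at 282 against 244 CPM (0.21, −0.12 to 0.54) and *Wfdc17* at 81.6 against 114 CPM (−0.49, −1.05 to 0.07). Among the lower genes *Rab11a*, a GTPase of recycling endosomes, stood apart from the granulocyte and mitosis genes, at 90.0 against 180 CPM in the library labelled KO (−0.997, −1.31 to −0.69) and 124 against 123 CPM in the library labelled WT (0.01, −0.48 to 0.50). Its log2 ratio in the library labelled KO lay between −1.55 and −0.68 under the alternative settings.

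The partners of *Kat2a* differed little. The SAGA and ATAC complex list summed to 775 CPM against 697 CPM (0.15, 0.03 to 0.28), all 4 tested genes were above 0 and none reached 1.5-fold. *Taf6l*, a structural subunit of SAGA, stood at 131 against 123 CPM (0.09, −0.22 to 0.39), *Eny2*, of its deubiquitinase module, at 114 against 94.7 CPM (0.27, −0.07 to 0.61), *Taf12* at 75.6 against 71.2 CPM (0.09, −0.31 to 0.49) and *Tada1* at 72.2 against 55.3 CPM (0.38, −0.05 to 0.82). Each interval included 0. The list stood at 746 against 652 CPM in the library labelled WT (0.19, −0.01 to 0.40). Other acetyltransferases and deacetylases summed to 724 against 685 CPM (0.08, −0.05 to 0.21), with *Hdac1* at 162 against 147 CPM, *Hat1* at 92.1 against 91.9 CPM and *Sirt7* at 84.5 against 96.0 CPM.

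Leukemia self-renewal genes gave no difference beyond counting error as a list. The *MLL-AF9* self-renewal list summed to 1087 against 1039 CPM (0.06, −0.04 to 0.17), with *Mef2c* at 348 against 350 CPM, *Myb* at 168 against 166 CPM and *Hoxa9*, a direct target of the fusion, at 132 against 140 CPM. Of its 7 tested genes 4 were higher and 3 lower, none by 1.5-fold. *Cdk6*, a cell cycle kinase, had an interval above 0, at 115 against 80.8 CPM (0.51, 0.17 to 0.87), and stood at 93.5 against 93.9 CPM in the library labelled WT. *Bcl2*, an inhibitor of apoptosis found in too few cells to be among the tested genes, also had one, at 33.0 against 18.7 CPM (0.82, 0.11 to 1.56). Stem and progenitor receptors summed to 2206 against 2101 CPM (0.07, 0.00 to 0.14), with *Cd47*, *Csf2ra* and *Cd33* each within 0.10 of 0. *Itgam*, an integrin subunit of mature myeloid cells, was the 1 tested gene of that list lower by 1.5-fold, at 34.4 against 56.0 CPM (−0.70, −1.24 to −0.18), and stood at 39.1 against 37.5 CPM in the library labelled WT. *Cd34*, a marker of stem and progenitor cells, stood at 93.5 against 65.6 CPM (0.51, 0.12 to 0.90). It had a UMI in 16.6% of *Kat2a*-detected (13.3 to 20.3) and 14.2% of matched cells (11.2 to 17.7), or 6.37% and 4.84% thinned. *Hoxa9* and *Meis1* were found together in 12 and 8 of 464 cells.

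Myeloid transcription factors summed to 3036 against 3353 CPM (−0.14, −0.20 to −0.08) and to 2831 against 3278 CPM in the library labelled WT (−0.21, −0.31 to −0.12). *Cebpb*, a factor of emergency granulopoiesis, stood at 1212 against 1395 CPM (−0.20, −0.30 to −0.11), *Id2*, an inhibitor of E proteins, at 407 against 507 CPM (−0.32, −0.48 to −0.16), *Spi1*, which encodes PU.1, at 614 against 674 CPM (−0.13, −0.27 to 0.00) and *Cebpe*, which drives secondary granule genes, at 414 against 413 CPM (0.00, −0.16 to 0.17). Monocyte and macrophage genes summed to 5002 against 5081 CPM (−0.02, −0.07 to 0.02), 7 of 13 tested genes being higher and 6 lower. Interferon-stimulated genes stood at 386 against 425 CPM (−0.14, −0.31 to 0.03) and immediate-early and heat stress genes at 8831 against 8730 CPM (0.02, −0.02 to 0.05), the latter with *Fos* at 1348 against 1461 CPM.

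Markers of other cell types varied in how many cells carried them. The T and NK cell list had a UMI in 186 of 464 *Kat2a*-detected and 147 of 464 matched cells. It was *Nkg7* alone in the *Kat2a*-detected set, with 7 of its 10 genes at 0 in both sets, and the B cell list (71.5 against 56.0 CPM) was *Cd79b* alone there, with 4 of 8 at 0. Mast cell and basophil genes stood at 417 against 287 CPM (0.54, 0.36 to 0.72), mainly as *Mcpt8*, a basophil protease, at 287 against 167 CPM. The 10 cells with the most held 52.2% of that list's UMIs in the *Kat2a*-detected set and 65.6% in the matched set. Dendritic cell genes stood at 629 against 479 CPM (0.39, 0.25 to 0.54), with a UMI in 174 and 144 cells but 50% of the UMIs in 3 and 4 cells, and turned to −0.61 against all other kept cells. Y-linked genes stood at 118 against 87.8 CPM (0.42, 0.08 to 0.76). Mitochondrial transcripts, a sign of RNA quality, took 0.488% and 0.458% of UMIs. Their part in the differences above was not tested.

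The differences did not grow steadily with the number of *Kat2a* UMIs. Paired by depth with cells without *Kat2a*, the 298 cells with 1 UMI gave −0.63 (−0.65 to −0.60) for the mature granulocyte list, the 113 cells with 2 gave −0.49 (−0.52 to −0.45) and the 58 cells with 3 or more gave −0.78 (−0.84 to −0.72). The secondary and tertiary granule list gave −0.67, −0.66 and −0.89 in the same order. The mitosis list gave −0.27 (−0.32 to −0.23), −0.40 (−0.48 to −0.33) and −0.11 (−0.20 to −0.02), so it was nearest to 0 in the cells with the most *Kat2a*.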

How the data were processed

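The 2 10x Genomics 3′ libraries were analysed from the gene by cell UMI counts the authors deposited. Per the labels, Cell Ranger 1.3.1 and mm10 were used, while the paper's methods name another Cell Ranger version. The barcode suffix was assigned to a genotype from the study's published code. The library labelled KO held 8585416 UMIs in 4240 deposited cells and the library labelled WT 11892536 in 4069. Cells with 500 or more genes were kept. No doublets were removed in the main comparison. Each cell with *Kat2a*, deepest first, was paired with the nearest unused other cell of its library by total UMIs without *Kat2a*, within 10%. UMIs were summed per set, scaled to 1000000 and compared as log2 ratios with exact conditional binomial intervals (95%). With 1 library per genotype no test was run. Clusters came from k-means on 20 principal components of log counts per 10000, over 888 variable genes (up to 500 from each library). Named genes were the 15 with the interval bound farthest above and below 0, genes within 5 places of *Kat2a*, and up to 4 members of each list with most UMIs. The members and the 21 lists were chosen with earlier results of these data known. Some genes that these rules select are not reported here. *Cd34*, *Lyz2*, *Itgam* and *Bcl2* were named after their values were seen. Software was Python 3.11.15 with scipy 1.17.1 and scikit-learn 1.9.0. The pairing and intervals were tried on simulated data. The simulated UMIs were drawn independently, so that trial cannot show how the intervals behave where a few cells carry much of a gene.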

Additional observations from a re-analysis of the deposited data

Results flagged for a closer look

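*Kat2a* was also present in cells that the comparisons left out. The 695 cells of the library labelled KO with under 500 genes held 16 *Kat2a* UMIs, 24.1 CPM (95% counting interval 13.7 to 39.1), while none was found in the 203 cells under that limit in the library labelled WT (a count of 0, at which 3 counts would be 13.4 CPM and the exact interval reaches 16.5 CPM, so the intervals overlap). Mitochondrial transcripts went in opposite directions in the libraries, with a log2 ratio of *Kat2a*-detected over depth-matched cells of 0.090 (0.04 to 0.14) in the library labelled KO and −0.14 (−0.23 to −0.06) in the library labelled WT. The difference between these was not tested.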

How the results depend on the processing

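No paired analysis was possible because each genotype had a single library. The lower mature granulocyte and mitosis lists kept their direction under every alternative tried, the higher primary granule list under all but one. Pairing within the cell's own cluster turned the primary granule list to −0.0051 on the log2 scale, left the mature granulocyte list at −0.095 and gave 14 genes higher and 14 lower by 1.5-fold. The clusters were built in part from these genes. It also turned *Ltf* to 0.16, *Gm5483* to 0.27 and *Stfa1* to 0.22.

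Without pairing, against all other kept cells, 134 genes were higher and 94 lower, the mature granulocyte list stood at −0.71, the S phase list at 0.37 and the mitosis list at −0.15. This turned the dendritic cell list to −0.61, *Wfdc17* to −0.87 and *H2-DMa* to −0.029. With cells thinned to 1000 UMIs, 158 genes were higher and 104 lower, the primary granule list stood at 0.27, the S phase list at 0.37 and the mitosis list at −0.10, the dendritic cell list turned to −0.30, *Wfdc17* to −0.44 and *H2-DMa* to −0.041, and the share of cells with *Kat2a* was 7.04%. With *Kat2a* detected only after thinning, 133 genes were higher and 137 lower, and the primary granule, mature granulocyte, S phase and mitosis lists stood at 0.11, −0.57, 0.19 and −0.20. The dendritic cell list turned to −0.054 there and *H2-DMa* to −0.31.

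With the other cells weighted over 20 strata of depth, 13 genes were higher, the primary granule list stood at 0.20 and the mature granulocyte list at −0.53. With 2 or more *Kat2a* UMIs required, 123 genes were higher and 93 lower, the same 4 lists stood at 0.19, −0.65, 0.16 and −0.32, and the erythroid list turned to 0.42. With 1000 or more genes per cell, the share with *Kat2a* was 26.5%, the mature granulocyte list stood at −0.56 and *Ltf* turned to 0.061. Totals without the 50 most abundant genes gave 0.19, −0.68, −0.026 and −0.33 for the 4 lists. Without the 5% of cells with the highest doublet score 41 genes were higher, the mature granulocyte list stood at −0.65 and the dendritic cell list turned to −0.10. A detection limit of 5% of cells gave 125 genes higher and 109 lower. It tested 3857 genes against 2415 in the main comparison, so these counts cannot be set directly against the main ones. A lower limit on the fold gave 259 genes higher and 149 lower of the 2415. With all deposited cells the share with *Kat2a* was 11.4%. The cause of these shifts was not tested. Leaving out barcodes found in both libraries, chosen after seeing the data, moved none of these results beyond counting error or 1.5 times. Leaving out the 12 cells with 5 or more *Kat2a* UMIs, also chosen then, took cluster 8 from 133 to 80.8 CPM, moved no other cluster by over 1.5 times and left the highest cluster at 8.48-fold the lowest.

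Depth limits the comparison: a median of 1807 UMIs in the other kept cells can leave a cell that expresses *Kat2a* without a UMI of it, so the comparison cells are not known to lack it.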

Other observations

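Red cell and platelet transcripts marked a handful of cells. In the matched set of the library labelled KO a single cell held 1923 UMIs of the erythroid list, and the 10 cells with the most held 98.7% of the list's UMIs there. The list stood at 111 CPM in *Kat2a*-detected and 2072 CPM in matched cells, chiefly as the globin genes *Hbb-bs* (43.3 against 729 CPM) and *Hba-a1* (5.50 against 470 CPM). Megakaryocyte genes stood at 67.4 against 614 CPM, chiefly as *Pf4*, platelet factor 4, and 97.0% of their UMIs in the matched set lay in 10 cells. With so few cells these values describe those cells and not the sets.

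Within clusters, the mitosis list was not lower in every cluster. It was above 0 in cluster 5, the monocyte or macrophage-like cluster with *Ccl6* and *Apoe*, at 4327 against 1282 CPM in 11 pairs, and in cluster 12, led by *Itgb7* and *Ctss*, at 5022 against 3379 CPM in 16 pairs. In cluster 3 it was lowest against its matched cells, at 5922 against 8651 CPM in 72 pairs (log2 ratio −0.55, −0.65 to −0.45), and in cluster 9 it stood at 6945 against 6962 CPM in 82 pairs (0.00, −0.08 to 0.07). The nucleolar and Myc target list was below 0 in 3 of the 12 clusters, in none of them with an interval below 0.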
